A study of Homo sapiens with 4 samples.

Results

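The 36 genes described here encode aminoacyl-tRNA synthetases, 20 of the cytosol and 16 of mitochondria, measured in MV4;11 cells with and without a TLR1/TLR2 agonist. They were chosen by gene symbol alone, as older symbols (WARS, not WARS1), and all 36 stood in the deposited table of 56638 symbols and passed the filter that left 14018 genes for testing. Symbols ending in 2 were taken as mitochondrial. GARS and KARS were counted as cytosolic, although each gene also supplies mitochondria. MV4;11 is a permanent culture of human acute myeloid leukaemia cells with an MLL fusion and an internally duplicated FLT3. One group (2 libraries) received the synthetic agonist CU-T12-9 at 1 µg/mL for 24 h. The other group (2 libraries) is labelled DMSO in its treatment field, whereas the protocol text names PBS, so the vehicle is uncertain. Both groups are unmodified parental cells grown in RPMI, a single line at a single dose and time, and no label says that libraries came from separate cultures. The p-values therefore measure only the spread between these libraries, which may be technical.

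Libraries held 23087102 to 25867733 counted reads, and 19568 to 20039 symbols had at least 1 read. All 9 myeloid markers that were checked were expressed, and 7 of them rose and 2 fell under CU-T12-9. These shares were 77.8% and 22.2%, against 32% and 33.2% of all genes tested. In CPM (reads scaled to a common library size), the integrin ITGAM rose 4.18-fold and the phosphatase PTPRC 2.45-fold, while CD33 fell from 165 to 125 and FLT3 from 464 to 374. Among 12 markers of other cell types CD3D, HBB, EPCAM and PECAM1 had no read in any library. Those 12 summed to 8.81 to 9.52 CPM under DMSO and 5.39 to 5.52 CPM under CU-T12-9, most of it NCAM1 and KRT8. The myeloid markers summed to 1072 to 1079 CPM under DMSO and 1223 to 1257 CPM under CU-T12-9. The part of these shifts in the results was not tested. In bulk RNA fewer cells that express a gene and less RNA per cell cannot be told apart.

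An aminoacyl-tRNA synthetase joins one amino acid to its tRNAs, the step at which the genetic code is read chemically. Cytosolic and mitochondrial ribosomes draw on separate sets of charged tRNAs, and most amino acids have a separate nuclear gene for each compartment. In animal cells several cytosolic enzymes sit in the multi-tRNA synthetase complex on the scaffold proteins AIMP1, AIMP2 and EEF1E1, and the others are free. Synthetase genes are known targets of ATF4, the transcription factor of amino acid shortage, and WARS, the tryptophanyl enzyme, is a classical interferon-gamma-induced gene of myeloid cells.

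Most synthetase transcripts were modestly lower under CU-T12-9, and a minority led by WARS was higher. Of the 20 cytosolic genes 13 fell and 4 rose (WARS, CARS, QARS and SARS), and of the 16 mitochondrial genes 9 fell and 2 rose (HARS2 and TARS2), by edgeR's quasi-likelihood test with Benjamini-Hochberg adjustment over all genes. Treatment moved much of the transcriptome, so these counts stand against a high background. Of all genes tested 65.2% were called, 32% higher and 33.2% lower. Of the 9180 genes at least as abundant as the lowest synthetase gene (PARS2, 9.18 CPM over all libraries) 74% were called, 34.3% higher and 39.7% lower. For comparison, 85% of the cytosolic genes were called (20% higher, 65% lower) and 68.8% of the mitochondrial genes (12.5% higher, 56.2% lower). The median log2 fold change was -0.33 for the cytosolic and -0.26 for the mitochondrial genes, against -0.034 for the genes of at least that abundance. No change exceeded 2.01-fold. When the test asked for more than a 1.5-fold change, 5 calls were left, all of them falls (FARSB, IARS, YARS, NARS2 and VARS2), and the calls of WARS and the other risers ended.

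**Figure D1:**
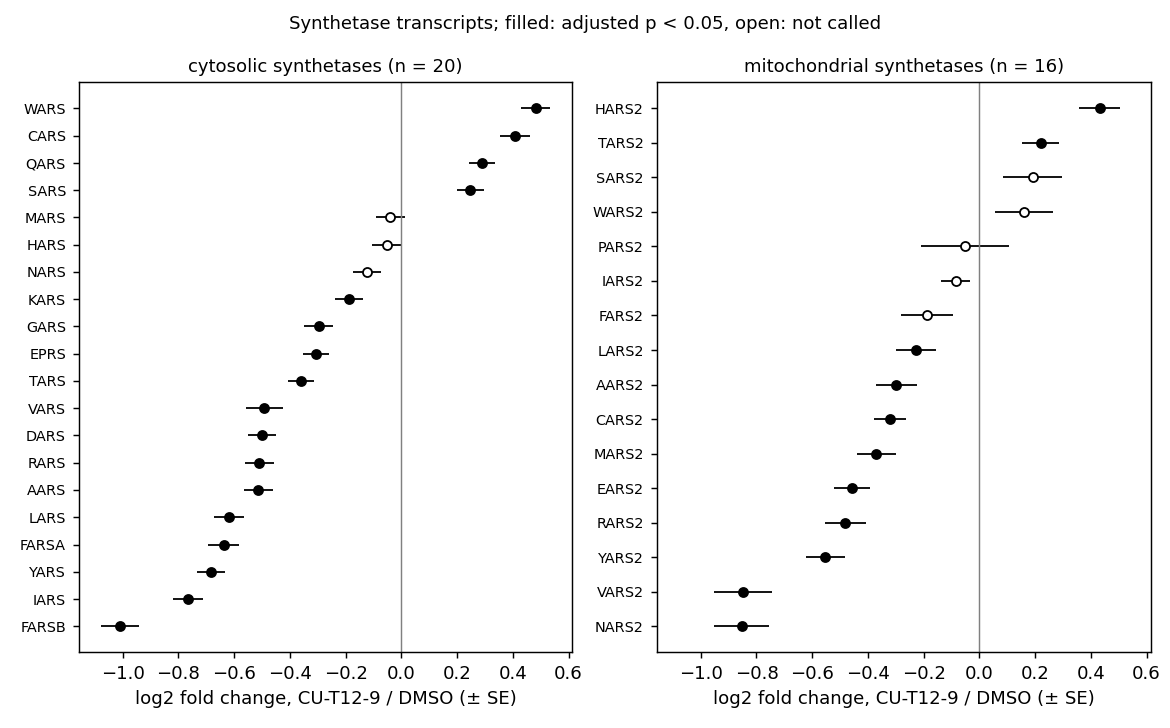
Log2 fold change of each synthetase gene, CU-T12-9 over DMSO, with its standard error as a bar (2 libraries in each group); filled points were called by edgeR, open points were not. The cytosolic genes run from FARSB at -1.01 to WARS at 0.48 and the mitochondrial genes from NARS2 at -0.85 to HARS2 at 0.43.

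FARSB and FARSA, the beta and alpha subunits of the phenylalanyl enzyme of the cytosol, both fell. FARSB had 113 and 104 CPM in the DMSO libraries and 56.6 and 51.6 CPM in the CU-T12-9 libraries. This was the largest fall of the family, 2.01-fold (log2 fold change -1.01, SE 0.07, edgeR adjusted p = 1.51e-06), and the groups lay far apart. FARSA had 259 and 265 CPM under DMSO and 161 and 175 CPM under CU-T12-9, a 1.56-fold fall (-0.64, SE 0.06, edgeR adjusted p = 8.81e-06). The enzyme needs both subunits, and FARSB fell more than FARSA in these libraries, a difference between genes that was not tested.

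IARS, LARS and YARS charge isoleucine, leucine and tyrosine. IARS had 303 CPM in each DMSO library and 185 and 172 CPM in the CU-T12-9 libraries, 1.7-fold lower (log2 fold change -0.76, SE 0.05, edgeR adjusted p = 2.14e-06). YARS had 153 CPM in each DMSO library and 95.1 and 95.6 CPM in the CU-T12-9 libraries, 1.61-fold lower (-0.68, SE 0.05, edgeR adjusted p = 2.47e-06). In both genes the gap between groups was many times the gap between libraries of a group. LARS, also known as a leucine sensor of the mTORC1 pathway, went from 381 and 386 CPM to 259 and 241 CPM, 1.53-fold lower (-0.62, SE 0.05, edgeR adjusted p = 8.26e-06). AARS (alanine) went from 177 and 179 CPM to 121 and 128 CPM, 1.43-fold lower, again with no overlap. It stood in a group of 4 genes with nearly equal falls: AARS, RARS (arginine), DARS (aspartate) and VARS (valine) had log2 fold changes between -0.51 and -0.49. Smaller falls were those of TARS (threonine; log2 fold change -0.36), EPRS (glutamate and proline in 1 protein; -0.31) and GARS (glycine; -0.30). KARS (lysine) fell least, from 292 and 296 CPM to 253 and 263 CPM (-0.19, edgeR adjusted p = 0.0079), and lost its call without the first or the second DMSO library (adjusted p = 0.0622 and 0.0968 by edgeR).

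NARS, HARS and MARS were not called. NARS (asparagine) had 236 and 224 CPM under DMSO and 212 and 210 CPM under CU-T12-9 (log2 fold change -0.12, edgeR adjusted p = 0.0556). Its groups did not overlap, and it was called lower without either CU-T12-9 library (adjusted p = 0.0294 and 0.01 by edgeR) and with library totals as the only scaling (0.0361). HARS (histidine) had 87.3 and 84.1 CPM against 81.9 and 83.6 CPM (-0.05, SE 0.05). MARS (methionine) had 140 and 139 CPM against 140 and 131 CPM (-0.04, SE 0.05), so its groups overlapped. The MARS gene overlaps ARHGAP9 and DDIT3 in the RefSeq annotation. ARHGAP9 rose (log2 fold change 0.87), and its reads over the 4 libraries came to 32.1% of those of MARS. No source used here gives the strand setting of the counting, and assignment of reads between these genes was not tested. YARS and CARS2 also overlap read neighbours, S100PBP and ING1, with reads equal to 18.9% and 18.4% of theirs.

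WARS rose most of the family. Its counts were 4221 and 4085 reads in the DMSO libraries and 5349 and 5335 reads in the CU-T12-9 libraries, or 162 and 171 CPM against 229 and 236 CPM. Both treated libraries lay above both controls, a 1.4-fold rise (log2 fold change 0.48, SE 0.05, edgeR adjusted p = 3.47e-05). The estimate stayed between 0.44 and 0.54 in the fits that left out 1 library. WARS made up 4.01% and 4.2% of cytosolic synthetase CPM under DMSO and 6.86% and 7.02% under CU-T12-9. Summed over the 20 cytosolic genes the level fell from 4051 ± 10.9 to 3348 ± 17.1 CPM, and without WARS from 3885 ± 4.88 to 3115 ± 12.1 CPM (SD, n = 2 in each group). Counts per gene cannot separate full-length WARS transcripts from those of the shortened, interferon-linked form.

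Beside WARS, CARS (cysteine) rose from 58.3 and 58.5 CPM to 77.5 and 77.3 CPM, 1.33-fold (log2 fold change 0.41, SE 0.05, edgeR adjusted p = 1.44e-04). The libraries of each group agreed closely. QARS (glutamine), an enzyme of the synthetase complex, rose from 313 and 318 CPM to 381 and 390 CPM, 1.22-fold (0.29, SE 0.05, edgeR adjusted p = 5.54e-04). SARS (serine), which also charges the tRNA for selenocysteine, rose from 112 and 113 CPM to 133 and 134 CPM, 1.19-fold (0.25, SE 0.05, edgeR adjusted p = 0.00182). Without the first DMSO library the SARS call was lost (adjusted p = 0.051 by edgeR).

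**Figure D2:**
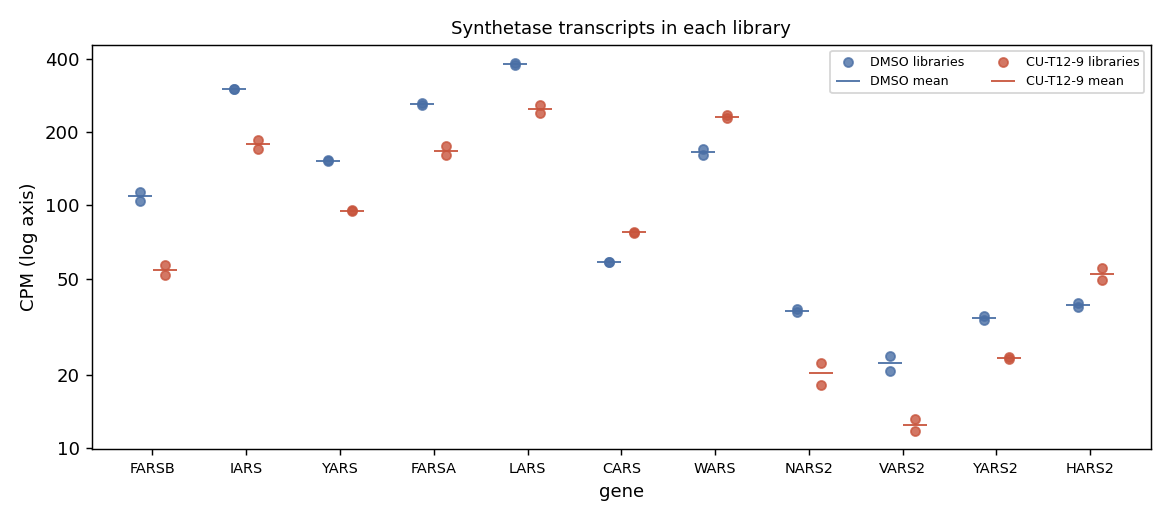
CPM on a log axis in each of the 4 libraries (points) with the group mean (bar) for the 5 cytosolic genes that fell most, the 2 that rose most, the 3 mitochondrial genes that fell most and HARS2. In each of these genes the 2 DMSO and the 2 CU-T12-9 libraries form separate ranges. Treated libraries lie above DMSO for CARS, WARS and HARS2 and below it for the other genes. The genes were picked for their large called changes, and 11530 of the 14018 genes tested had groups that did not overlap.

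The promoter table of RefSeq (GRCh38.p14, a build other than the GRCh37 of the counts, used here for sequence only) held windows from 250 bases before to 50 bases after a transcript start for 30 of the 36 genes, 39 windows in all; DARS, LARS, VARS, YARS, AARS2 and VARS2 were not matched. WARS has 2 listed starts 980 bases apart. The window of the downstream start was the sole synthetase window with a match to both the GAS motif TTCNNNGAA, known from interferon-gamma-induced genes, and the ISRE core GAAANNGAA, bound by IRF factors. Both strands were searched, the 2 motifs can overlap in part, and 332 of all 35097 windows (0.946%) held both. The upstream WARS window held neither. Because WARS is the family's interferon gene, the 2 matches are shown with 10 bases on each side on the gene's strand, the match in capitals. The first lies at chr14:100375471-100375499 (minus strand), its match starting 142 bases before the start, and the second at chr14:100375384-100375412 (minus strand), starting 55 bases before it. In GENCODE v29, 5 of 7 basic WARS transcripts span this window, and 3 of them have exon bases in it.
WARS GAS match: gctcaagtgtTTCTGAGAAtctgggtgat
WARS ISRE core match: tttcagaaggGAAACTGAAagaaagaggg

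Most genes of the interferon-gamma pathway rose together with WARS. Of 19 listed, 17 were tested, 14 rose and none fell. The share that rose was 82.4%, against 32% of all genes tested. Their median log2 fold change was 1.74, which did not change when CXCL9 and CXCL10, unread under DMSO, were set to the bound that a floor of 3 reads over both DMSO libraries gives. The count that fell was 0 with edgeR, DESeq2 and limma-voom alike, also at an unadjusted p under 0.05. STAT2 rose from 44.2 ± 3.79 to 164 ± 17.7 CPM (log2 fold change 1.89). The receptor genes IFNGR1 and IFNGR2 rose 1.56-fold and 3.34-fold. IFNG itself had no read in any library, where 3 reads correspond to 0.115 to 0.133 CPM. IRF1 was not called (29.9 ± 0.166 against 28.7 ± 0.822 CPM), nor were PSMB9 (log2 fold change -0.16) and SOCS1 (0.46). The largest fitted changes among genes read under DMSO were GBP5, a guanylate-binding GTPase, at 4.24 and GBP2 at 3.93. By log2 fold change WARS stood below every called gene of this list, the smallest being IFNGR1 at 0.64.

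Tryptophan, the amino acid that WARS charges, is broken down by IDO1, which had no read in any library, as had IDO2. Of 5 tested genes of tryptophan catabolism KYNU (kynureninase) rose 2.4-fold and KMO 2.14-fold, AFMID fell 1.54-fold, and HAAO and QPRT were not called. TLR4, through which secreted WARS is known to act on myeloid cells together with MD-2, rose from 15.1 ± 1.48 to 21.2 ± 1.26 CPM (log2 fold change 0.48), while LY96, which encodes MD-2, had 2 to 5 reads per library and was not tested.

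Over the 4 libraries, the genes with mean CPM of at least 20 whose centred log2 CPM profile lay nearest to that of WARS by Euclidean distance were SLC35E1, SIAH2, VAV2, MEGF9, SUPT6H, ARNT, CD47 and CTSA, at distances of 0.0081 to 0.033. Among the synthetases CARS came nearest (0.097), then HARS2 (0.16) and QARS (0.2). With 2 libraries per group these distances mostly compare 1 difference between groups.

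Most genes of the synthetase complex fell, as most cytosolic synthetase genes did, scaffolds included. Of its 8 enzymes 6 fell (DARS, EPRS, IARS, KARS, LARS and RARS), QARS rose and MARS was not called. The share that fell was 75%, against 65% of all 20 cytosolic genes and 39.7% of genes at least as abundant as PARS2. All 3 scaffold genes fell: AIMP1 from 103 ± 0.943 to 80.5 ± 2.92 CPM, AIMP2 from 69.5 ± 2.69 to 56 ± 1.12 CPM and EEF1E1 from 14.8 ± 1.33 to 6.36 ± 1.13 CPM. EEF1E1 had the largest fall of the complex, 2.33-fold (log2 fold change -1.22, SE 0.14, edgeR adjusted p = 5.26e-05). Of the 12 free-standing enzymes 7 fell (58.3%), 3 rose and 2 were not called. Medians were -0.40 for the complex enzymes and -0.33 for the free-standing ones. By catalytic fold, the 9 class I enzymes split into 5 lower (55.6%) and 3 higher (CARS, QARS and WARS). The 10 class II enzymes split into 7 lower (70%) and 1 higher (SARS), EPRS holding both folds. Differences between these groups of cytosolic genes were not tested.

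Among the mitochondrial genes NARS2 and VARS2 fell most. NARS2 (asparagine) fell from 37.4 and 36.3 CPM to 22.5 and 18.3 CPM, 1.81-fold (log2 fold change -0.85, SE 0.10, edgeR adjusted p = 5.38e-05). VARS2 (valine) fell from 23.9 and 20.8 CPM to 11.8 and 13.1 CPM, 1.8-fold (-0.85, SE 0.10, edgeR adjusted p = 8.59e-05). In both genes each treated library was below both controls. YARS2 (tyrosine) fell from 33.9 and 35.1 CPM to 23.3 and 23.7 CPM, 1.47-fold (-0.55, SE 0.07, edgeR adjusted p = 1.08e-04). RARS2 (arginine) fell from 37.7 and 41 CPM to 27.6 and 28.8 CPM, and EARS2 (glutamate) from 56.6 and 61.3 CPM to 43.5 and 42.3 CPM. Then came MARS2 (-0.37), CARS2 (-0.32), AARS2 (-0.30) and LARS2 (-0.23). The AARS2 call was lost without the first DMSO library (edgeR adjusted p = 0.0947), and the LARS2 call without the second (0.191) and by DESeq2 (0.0978).

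HARS2 and TARS2 were the mitochondrial genes called higher; SARS2 and WARS2 also had positive log2 fold changes (0.19 and 0.16) but were not called. HARS2 (histidine) rose from 38.2 and 39.5 CPM to 55.3 and 49.4 CPM, 1.35-fold (log2 fold change 0.43, SE 0.07, edgeR adjusted p = 6.19e-04). TARS2 (threonine) rose from 33.7 and 32.2 CPM to 38.5 and 38.2 CPM, 1.16-fold (0.22, SE 0.07, edgeR adjusted p = 0.0155). Both genes had higher levels in each treated library. The TARS2 call did not hold with DESeq2 (adjusted p = 0.0675) or without the first or the second DMSO library (edgeR adjusted p = 0.0891 and 0.223). HARS2 held in each of these fits.

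The mitochondrial genes not called were FARS2, IARS2, PARS2, WARS2 and SARS2, for phenylalanine, isoleucine, proline, tryptophan and serine. FARS2 had 18.6 and 16.9 CPM against 15.2 and 16 CPM (edgeR adjusted p = 0.102) and was called lower (0.0351) on leaving out the second CU-T12-9 library. IARS2 had 188 and 179 CPM against 176 and 170 CPM, and SARS2 9.06 and 8.98 CPM against 10.3 CPM in each treated library. Neither pair of groups overlapped. PARS2, one of the least counted, had 8.71 and 9.98 CPM against 7.65 and 10.4 CPM, and WARS2 had 14.3 and 17 CPM against 17.9 and 17 CPM, its second DMSO library lying just above the lower treated one. WARS2 thus had a log2 fold change of 0.16 (SE 0.11) beside 0.48 for WARS. Reads of FARS2 and EARS2 are uncertain, since each gene overlaps a more heavily read neighbour in the annotation, LYRM4 and GGA2.

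HARS and HARS2 lie head to head on chromosome 5 with starts 85 bases apart in RefSeq. HARS was not called, while HARS2 rose, and the ratio of HARS to HARS2 reads went from 2.29 and 2.13 under DMSO to 1.48 and 1.69 under CU-T12-9. The 84 bases between the starts are shown, because the calls of these neighbours differ, on the plus strand, GRCh38.p14 chr5:140691371-140691454. They hold no match to the 5 motifs searched.
HARS-HARS2 interval: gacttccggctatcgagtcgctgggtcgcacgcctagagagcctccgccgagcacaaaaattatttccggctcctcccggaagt

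Cytosolic and mitochondrial genes for one amino acid differed in how far they moved, and for some in direction. Of 17 pairs (FARS2 and EPRS each stand in 2), the ratio of cytosolic to mitochondrial reads was higher in both CU-T12-9 libraries than in both DMSO libraries in 7, lower in 8 and overlapping in 2. Among single genes 11530 of the 14018 tested had groups that did not overlap and 65.2% were called, so nothing is read from the number of such pairs. Among the pairs that did not overlap the size of the shift varied widely, down to a difference in log2 fold change of 0.06 for SARS/SARS2. This within-library ratio needs no scaling between libraries. The widest shifts towards the cytosolic gene were for asparagine and cysteine. NARS/NARS2 went from 6.32 and 6.18 to 9.44 and 11.5, and CARS/CARS2 from 0.679 and 0.641 to 1.11 and 1.08, where the cysteine genes moved in opposite directions. The widest shifts towards the mitochondrial gene were for phenylalanine (FARSB/FARS2, from 6.09 and 6.18 to 3.72 and 3.22) and isoleucine (IARS/IARS2, from 1.61 and 1.69 to 1.05 and 1.01). For threonine the genes again went opposite ways, TARS falling and TARS2 rising. Arginine showed the closest match, with log2 fold changes of -0.51 for RARS and -0.48 for RARS2. These differences between genes are descriptions and were not tested.

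**Figure D3:**
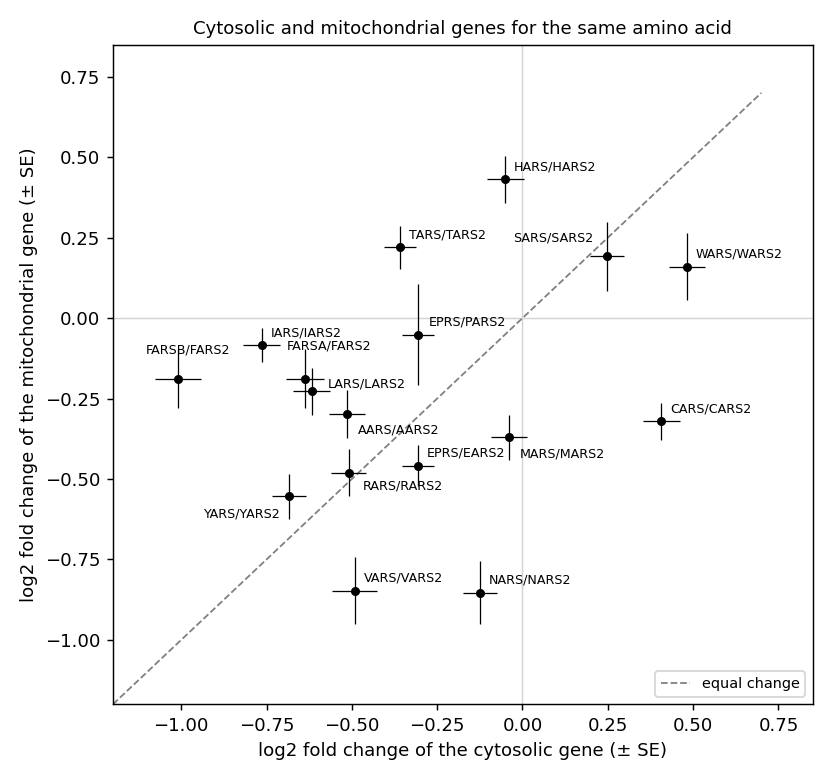
Log2 fold change (CU-T12-9 over DMSO) of the cytosolic gene on the x axis and of the mitochondrial gene for the same amino acid on the y axis, with standard errors; the dashed line marks equal change. RARS/RARS2 lies on the line, while NARS/NARS2 and CARS/CARS2 lie below it and IARS/IARS2 and HARS/HARS2 above it.

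Per kilobase of exon (union of exons in the GENCODE v29 basic set, which overstates length for genes with many isoforms), cytosolic genes had a median of 58.9 CPM per kb under DMSO, with a range of 18.7 to 125, and mitochondrial genes a median of 12.2, with a range of 3.98 to 51.5. FARSA (125 ± 1.78), KARS (121 ± 1.28) and QARS (109 ± 1.21) led under DMSO. Under CU-T12-9 the order was QARS (134 ± 2.38), KARS (106 ± 3.14) and FARSA (80.5 ± 4.74). WARS moved from rank 19 of 36 at 39.2 ± 1.42 CPM per kb to rank 7 at 54.7 ± 1.17, where it and GARS (54.8 ± 1.97) differed by less than their spread. IARS2 was the most abundant mitochondrial gene in both groups, at 51.5 ± 1.77 and 48.6 ± 1.34 CPM per kb. PARS2 and SARS2 were lowest under DMSO, at 3.98 ± 0.381 and 4.07 ± 0.0260 CPM per kb, within the spread of PARS2, and under CU-T12-9 VARS2 (3.06 ± 0.237) and PARS2 (3.84 ± 0.823) were lowest, again within the spread of PARS2 (SD, n = 2 throughout).

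Among 13 cytosolic synthetases listed as ATF4 targets 8 fell (61.5%) and 3 rose (23.1%: CARS, SARS and WARS), their median being -0.31. Among the other 7 cytosolic genes 5 fell (71.4%) and 1 rose (14.3%), their median being -0.50. The ATF4 response beyond the synthetases went both ways: of 22 tested genes 12 fell (54.5%) and 7 rose (31.8%), and the list's median was -0.27. Among all genes tested 33.2% fell and 32% rose, so the share that rose was near the background. Of genes at least as abundant as PARS2 39.7% fell. ATF4 transcripts went from 219 ± 4.3 to 197 ± 12.6 CPM (-0.15, edgeR adjusted p = 0.0422). SLC7A11, the cystine transporter, and CHAC1, which degrades glutathione, had the largest changes of the list, 33.6-fold and 10.1-fold higher. ASNS, the asparagine synthetase, fell slightly (-0.25), and the transporters of large neutral and cationic amino acids SLC7A5 and SLC7A1 fell 2.71-fold and 1.86-fold.

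The core of the C/EBP-ATF response element, TGATGNAA, was searched on both strands. Of genes with a RefSeq window, 7 of 16 cytosolic and 1 of 14 mitochondrial genes (YARS2) held it. These were 7 of 21 cytosolic and 1 of 18 mitochondrial windows, against 3.62% of all windows. All 7 cytosolic genes are among the 10 ATF4-listed ones with a window. Their directions differed: CARS rose, AARS, GARS, IARS and TARS fell, and MARS and NARS were not called. The matches are printed because the same letters stand beside genes that moved in different directions. Each is given on the gene's strand with 10 bases on each side and the match in capitals. Their places in GRCh38.p14 are chr16:70289676-70289703 (AARS, minus), chr11:3057408-3057435 (CARS, minus), chr7:30594835-30594862 (GARS, plus), chr9:92293693-92293720 (IARS, minus), chr12:57488054-57488081 (MARS, plus), chr18:57621805-57621832 (NARS, minus) and chr5:33440957-33440984 (TARS, plus).
AARS: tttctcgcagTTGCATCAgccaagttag
CARS: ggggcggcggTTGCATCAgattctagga
GARS: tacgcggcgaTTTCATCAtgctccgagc
IARS: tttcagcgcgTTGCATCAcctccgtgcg
MARS: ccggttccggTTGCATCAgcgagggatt
NARS: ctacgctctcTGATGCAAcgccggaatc
TARS: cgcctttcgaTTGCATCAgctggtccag

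In 6 of the 7 the matched letters were those of TTGCATCA or its reverse complement, and GARS differed. The E-box CACGTG, bound by MYC and related factors, was in windows of IARS, CARS2, EARS2 and MARS2. That was 1 of 21 cytosolic and 4 of 18 mitochondrial windows, against 7.25% of all windows. These 4 genes fell, as 61.1% of the 36 synthetase genes did, and a link to the motif was not tested. The NRF1 core GCGCANGCG is tied to nuclear genes of mitochondria. It was in windows of 3 of 16 cytosolic genes (FARSB, SARS and TARS) and 3 of 14 mitochondrial ones (IARS2, MARS2 and PARS2). These were 5 of 21 cytosolic and 3 of 18 mitochondrial windows, against 7.52% of all windows. Matches to GAS alone or ISRE core alone, found in 7.66% and 8.11% of all windows, were also present for CARS, TARS, PARS2 and WARS2 and for GARS, IARS and EARS2.

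Steps on either side of charging fell in part. Of the delivery factors EEF1B2 fell from 1148 ± 42.2 to 705 ± 3.67 CPM, and EEF1D (-0.21) and the mitochondrial elongation factors TUFM (-0.47) and TSFM (-0.75) fell too. EEF1A1, which carries charged tRNA to the cytosolic ribosome, was not called (log2 fold change 0.12, edgeR adjusted p = 0.0936), and its many pseudogenes make its count uncertain. EEF1G is listed at 0 in every library and was not tested. XPOT, the tRNA export receptor, fell 1.37-fold and DTD1, which removes D-amino acids from tRNA, 1.74-fold. SEPSECS, which makes selenocysteine on the tRNA charged by SARS, rose 1.52-fold from 18.5 ± 0.767 CPM, while PSTK, the kinase of the step between, was not called (0.12). TARSL2, a further cytosolic threonyl gene, was not called either (0.21, edgeR adjusted p = 0.0779). Mitochondria make their glutaminyl-tRNA with the QRSL1, PET112 and GATC subunits. QRSL1 fell by 0.28, and PET112 and GATC were not called, nor was MTFMT, which formylates the initiator methionyl-tRNA.

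**Figure D4:**
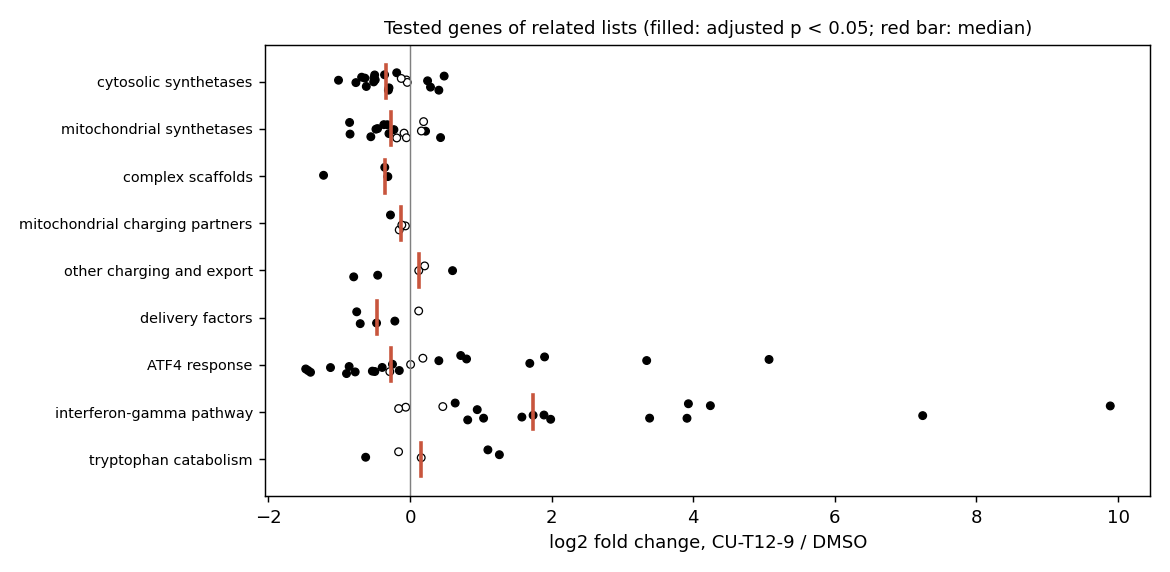
Log2 fold changes of tested genes in the synthetase groups and in lists of neighbouring function; filled points were called by edgeR, and the red bar is the list's median. The synthetase medians of -0.33 and -0.26 lie below 0 and that of the interferon-gamma pathway at 1.74; CXCL9 and CXCL10, the 2 points farthest right, had no DMSO read, so their fitted values are no measured folds.

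Of 9 tested partners of synthetases outside translation 3 rose and 3 fell, 33.3% each. Among all genes tested 32% rose and 33.2% fell, so nothing is read from these counts. The proteins that join EPRS in the interferon-gamma-activated GAIT complex, encoded by RPL13A, SYNCRIP and GAPDH, fell as EPRS did (log2 fold changes -0.19, -0.55 and -0.65). The Rag GTPase genes RRAGC and RRAGD, of the leucine-sensing branch in which LARS takes part, rose by 0.23 and 0.54, and RRAGA was not called. MITF and HINT1, partners of KARS in mast cell signalling, were not called (-0.16 and 0.02).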

How the data were processed

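RNA-seq of 4 MV4;11 libraries was analysed from 1 deposited table of raw read counts per gene symbol. Per the submitters' processing notes, FastQC 0.11.7, TopHat2, featureCounts 1.5.2 and build GRCh37 were used. Annotation, strand setting and treatment of multiply mapped reads were not given in the sources used here. These counts were tested in R 4.3.3 with edgeR 4.0.16 (filterByExpr, TMM, quasi-likelihood F-test, group as the only term), adjusted by Benjamini-Hochberg over 14018 genes, with a threshold of 0.05. Standard errors are the log2 fold change over the square root of F. CPM use TMM-adjusted library sizes, and 1 read was worth 0.0384 to 0.0442 CPM. Intervals were not needed, and the floor of 3 reads covers counting error only. The replicate pairs differed beyond sampling noise (chi-square per degree of freedom 2.42 and 6.99). The edgeR step was also tested on simulated data, where small folds were recovered less often than large ones.

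The genes, lists and tests were chosen with earlier results of these data known. Every synthetase is named; CPM in each library (and reads for WARS) are given for WARS, the 6 cytosolic and 5 mitochondrial genes with the largest called changes, those moving against the majority of their group and those not called. From related lists the 2 largest called changes and all members of lists of up to 6 are named, other genes there being chosen for their role. The lists were synthetase complex scaffolds, mitochondrial charging partners, other charging and export, delivery factors, ATF4 response, interferon-gamma pathway, tryptophan catabolism, non-translational partners, and markers. Alternatives were other scalings, filters, DESeq2 1.42.0, voom of limma 3.58.1, a 1.5-fold threshold, a replicate term and leaving out each library. Promoter and gene names came from RefSeq GRCh38.p14. Values of some listed genes are not reported here.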

Additional observations from a re-analysis of the deposited data

How the results depend on the processing

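WARS kept its direction and its call, and the counts of cytosolic calls stayed within 1.5 times, under other scalings (RLE, upper-quartile, library totals), other filters (none, 1 CPM), DESeq2 and limma-voom. Tested against a 1.5-fold change, calls fell to 1761 higher and 1688 lower genes in all, 0 higher and 3 lower cytosolic and 0 higher and 2 lower mitochondrial genes, and WARS (0.48) was no longer called (adjusted p = 1); at an unadjusted p under 0.05 this edgeR test also gave 0 higher in both groups. DESeq2 called 1 mitochondrial gene higher. The mitochondrial median of -0.26 became -0.25 with RLE, DESeq2 or a 1 CPM filter, -0.24 with upper-quartile factors and -0.28 with library totals or no filter. The cytosolic median of -0.33 became -0.31 with upper-quartile factors, -0.36 without WARS and -0.43 without GARS and KARS. Leaving out 1 library leaves an arm with 1 sample, assumed to vary like the other group. Mitochondrial genes called higher then numbered 1 to 2, with medians of -0.28 to -0.26, and 2 uncalled genes changed sign: MARS ranged from -0.054 to 0.0032 and PARS2 from -0.29 to 0.19. Replicate numbers are shared by label only (correlation of deviations 0.0079). With the number as a replicate block the cytosolic counts were 4 and 13, the mitochondrial counts 2 and 9 and WARS 0.48. The block changed no synthetase call.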
